A study of Mus musculus with 3 samples.

Results

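The genes described here encode proteins of the sarcomere's Z-disc and M-band together with titin, the filament that connects them. They were Ttn, Neb, Tcap, Myoz1, Myoz2, Ldb3, Actn2, Actn3, Myom1 and Myom2, and all probes carrying 1 of these names on the array were taken. Of the 10 genes, 9 had a probe, with 11 probes in all among 23473 probes and 18356 gene names, and Myoz1 had no probe under its name. Ttn had 3 probes and every other gene had 1. RNA was taken from C2C12, mouse myoblasts in culture that fuse into myotubes after serum withdrawal, and was hybridised to 3 one-colour oligonucleotide arrays, 1 array for each condition. The cells of C2C12-DF were parental and had spent 2 days in 2% horse serum. C2C12-W4-08 cells were a stably transfected clone that carries Wnt4 under the CMV promoter-enhancer and was selected in blasticidin, kept for 2 days in medium with 10% fetal bovine serum. C2C12-PR was the untransfected parental line after 2 days in the same medium with 10% fetal bovine serum. The comparisons ask how serum withdrawal and Wnt4 overexpression, each set against proliferating parental cells, relate to the transcripts of these proteins. C2C12-W4-08 is a single clone, and its array belonged to another order than the other 2 arrays, which means that effects of Wnt4, of cloning and selection and of the array order cannot be told apart.

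In a striated muscle, actin filaments are anchored at the Z-disc by alpha-actinin and myosin filaments are held in register at the M-band by myomesins. Titin runs from the Z-disc to the M-band and ties both lattices together, telethonin (Tcap) caps its Z-disc end, and nebulin (Neb) extends along the thin filament from the Z-disc. Myozenins and the PDZ and LIM domain protein encoded by Ldb3 bind alpha-actinin and connect the Z-disc to signalling proteins. In cultured myoblasts, this apparatus is assembled as the cells leave the cell cycle and fuse.

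Promoter windows are shown because the genes described below had higher signals in the same array, C2C12-DF. RefSeq windows of the build GRCm38.p6, each with 250 bases before and 50 bases after an annotated transcription start, were matched by symbol for 5 of the 10 genes, Ttn, Myoz2, Ldb3, Actn2 and Myom1. The 4 windows below are those that hold a match to the MEF2 motif or to the CArG box, which is the letters bound by serum response factor. Capitals mark matches on either strand to the E-box CANNTG, the MCAT element CATTCC, the MEF2 motif and the CArG box, and sequences read 5′ to 3′ along the strand of the gene. The windows lie at chr2:76982498-76982797 on the minus strand for Ttn, chr3:123034938-123035237 on the minus strand for Myoz2, chr14:34588632-34588931 on the minus strand for Ldb3 and chr17:71019307-71019606 on the plus strand for Myom1.
Ttn: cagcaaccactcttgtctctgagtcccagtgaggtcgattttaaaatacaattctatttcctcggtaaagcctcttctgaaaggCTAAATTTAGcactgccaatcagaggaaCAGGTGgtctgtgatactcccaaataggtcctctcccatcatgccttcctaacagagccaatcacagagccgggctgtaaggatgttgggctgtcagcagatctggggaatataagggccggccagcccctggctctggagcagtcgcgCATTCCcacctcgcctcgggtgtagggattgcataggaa
Myoz2: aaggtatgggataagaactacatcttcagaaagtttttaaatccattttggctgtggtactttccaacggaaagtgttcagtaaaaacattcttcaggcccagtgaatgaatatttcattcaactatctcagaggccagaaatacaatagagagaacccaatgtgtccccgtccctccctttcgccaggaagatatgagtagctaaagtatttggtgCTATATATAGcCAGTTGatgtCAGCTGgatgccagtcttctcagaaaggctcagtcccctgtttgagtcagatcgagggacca
Ldb3: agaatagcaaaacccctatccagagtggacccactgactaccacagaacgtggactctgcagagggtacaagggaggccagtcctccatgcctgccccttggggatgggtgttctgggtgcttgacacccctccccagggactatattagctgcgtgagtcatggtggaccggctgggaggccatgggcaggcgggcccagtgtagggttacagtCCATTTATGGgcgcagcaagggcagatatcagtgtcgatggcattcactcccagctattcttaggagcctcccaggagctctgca
Myom1: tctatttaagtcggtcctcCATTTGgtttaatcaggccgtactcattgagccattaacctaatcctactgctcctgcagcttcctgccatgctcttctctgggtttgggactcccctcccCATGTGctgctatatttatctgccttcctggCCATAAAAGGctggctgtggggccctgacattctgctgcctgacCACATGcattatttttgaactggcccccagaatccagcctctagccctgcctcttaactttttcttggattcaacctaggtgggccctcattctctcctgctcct

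The Ttn window held a MEF2 match whose first base lies 166 bases before the start, an E-box 138 bases before it and an MCAT element at base 12 of the transcript. In the Myoz2 window the MEF2 match began 33 bases before the start, and 2 E-boxes began 22 and 12 bases before it. The Ldb3 window, the first of 2 that overlap, held a CArG box 35 bases before the start and no other of the 4 motifs. In the Myom1 window a CArG box began 99 bases before the start, with E-boxes at 231, 130 and 55 bases. The Actn2 window had 3 E-boxes and none of the other motifs. Among 32851 windows of 300 bases, 72.3% held an E-box, 14.7% the MCAT element, 3.19% the MEF2 motif and 1.63% the CArG box, so an E-box is common in any window of this length. A match of letters is a description and not a binding site.

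Signals are spot medians minus the mean of 1750 blank spots, scaled so that ratios to C2C12-PR had a median of 1 over probes seen on both arrays, with the median detected probe of C2C12-PR at 25. A probe was taken as detected at the blank mean plus 2 SD or above. The error after each signal combines the blank SD with the coefficient of variation of 72 positive control spots on the array, which was 13.7% in C2C12-DF, 16.9% in C2C12-W4-08 and 18.3% in C2C12-PR. It is a technical error within an array. There were no replicates, so no test was possible, the precision is limited by the number of arrays, and 2-fold serves as a mark of size only. Of all probes 74.4% were detected in C2C12-DF, 92.8% in C2C12-W4-08 and 71.8% in C2C12-PR, and the C2C12-W4-08 blank spots were dim, at 4.38 scanner units against 17.9 in C2C12-DF and 20.4 in C2C12-PR. The Wnt4 probe read 4.63 in C2C12-DF, read 115 in C2C12-W4-08, and was not detected in C2C12-PR. The myoblast genes Myod1 and Des were detected on all 3 arrays. In C2C12-DF, 4 of 6 myotube markers stood at least 2-fold above C2C12-PR, none stood 2-fold below it, and 5 of 6 proliferation markers stood at least 2-fold below it. Of all gene names that could be compared, 5.32% stood 2-fold above and 5.0% below. In C2C12-W4-08, 0 of 6 proliferation markers stood 2-fold above or below C2C12-PR, with a median log2 ratio of −0.39. There the shares of all gene names were 9.24% above and 11.1% below.

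Every gene of the group that could be compared had a higher signal after serum withdrawal, in C2C12-DF, than in C2C12-PR. Of the 8 genes with a ratio or a bound, 8 were at least 2-fold higher and 0 were 2-fold lower, whereas over all gene names the same mark was passed upward by 5.32% of 14444 and downward by 5.0%. Detected on both arrays were 5 of them, Ttn, Ldb3, Actn3, Myom1 and Myom2, all at least 2-fold higher, beside 5.01% higher and 4.93% lower of 12911 gene names detected on both. Their median log2 ratio was 1.99, and 2.56 with the 3 bounds of Neb, Myoz2 and Actn2 included, against −0.012 over all gene names. The 3 bounds could only point upward, because a gene not detected in C2C12-PR otherwise counted as having no ratio. The count of 8 and the median of 2.56 were therefore partly fixed in advance, and the 5 genes detected on both arrays were not subject to this. Tcap was the gene without a ratio. Bulk RNA cannot separate a larger share of cells expressing a gene from more RNA per cell. The summed signal of the detected myotube markers was 3650 in C2C12-DF (6 genes), 526 in C2C12-W4-08 (6 genes) and 891 in C2C12-PR (4 genes). Chrna1, within 2-fold in C2C12-DF, made up 761 of the C2C12-PR sum. The part of cell composition in the ratios of the group was not tested.

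**Figure D1:**
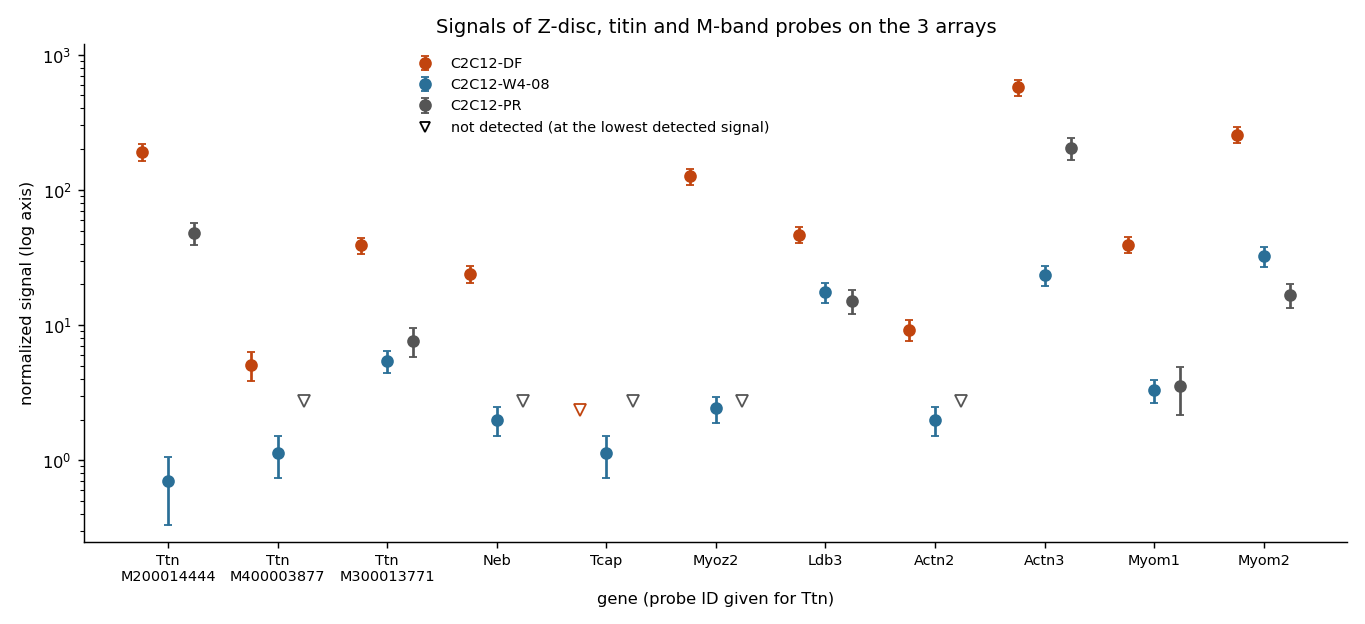
Normalized signal (log axis) of the 11 probes in C2C12-DF, C2C12-W4-08 and C2C12-PR, 1 array each. Bars are the technical error within an array and open triangles mark a probe that was not detected, drawn at the lowest detected signal. The C2C12-DF signal is the highest for every probe except that of Tcap, and Ttn M200014444 and Actn3 have C2C12-W4-08 signals of 0.697 and 23.5, below the 48.1 and 204 of C2C12-PR.

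Titin, the giant elastic protein of the sarcomere, was measured by 3 probes whose positions in the transcript are not given in the sources used here. The probe M200014444 had a signal of 191 ± 26.2 in C2C12-DF, 0.697 ± 0.365 in C2C12-W4-08 and 48.1 ± 8.87 in C2C12-PR. The probe M300013771 had a signal of 38.9 ± 5.44 in C2C12-DF, 5.44 ± 0.981 in C2C12-W4-08 and 7.67 ± 1.86 in C2C12-PR. Both were thus well above the parental culture after serum withdrawal, with log2 ratios of 1.99 ± 0.33 (3.96-fold) and 2.34 ± 0.40 (5.07-fold), and the errors of these 2 values overlap. The third probe, M400003877, read 5.09 ± 1.21 in C2C12-DF, read 1.13 ± 0.395 in C2C12-W4-08, and was not detected in C2C12-PR, so its C2C12-DF signal was at least 1.87-fold that of C2C12-PR. All 3 Ttn probes therefore pointed upward in C2C12-DF, although the bound of the dimmest stayed under 2-fold.

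In C2C12-W4-08 the Ttn probes disagreed. At M200014444 the log2 ratio to C2C12-PR was −6.11 ± 0.80, the C2C12-PR signal being 69.0-fold that of C2C12-W4-08. The C2C12-W4-08 spot read 6 scanner units, against a detection limit of 5.99, so the signal there was at the limit, and with the limit set by the negative controls the ratio was a bound, at or below −4.33. At M300013771 the log2 ratio was −0.50 ± 0.44, within 2-fold, and M400003877 gave no ratio. None of these spots carried a flag from the scanner software. Around the M200014444 spot, 21 of the 24 spots within 2 rows and columns were detected on both arrays, and their C2C12-W4-08 ratios ran from −1.50 to 1.78 with a median of −0.54. The low value was therefore not shared by the spots beside it. Whether the probes read different titin transcripts was not tested.

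The M-band genes had the largest ratios in C2C12-DF among the genes detected on both arrays under this processing. Myom2, which encodes the M-protein of fast fibres, had a signal of 256 ± 35.2 in C2C12-DF, 32.6 ± 5.51 in C2C12-W4-08 and 16.7 ± 3.29 in C2C12-PR. Its log2 ratio in C2C12-DF was 3.94 ± 0.35 (15.3-fold), and 22 of 12911 gene names detected on both arrays had a higher one. Myom1, which encodes the myomesin that crosslinks myosin filaments, had a signal of 39.3 ± 5.50 in C2C12-DF, 3.28 ± 0.653 in C2C12-W4-08 and 3.55 ± 1.38 in C2C12-PR. Its log2 ratio in C2C12-DF was 3.47 ± 0.60 (11.1-fold), with 31 gene names higher, and the wide error comes with a C2C12-PR signal close to the lowest detected one of 2.72. In C2C12-W4-08 both lay within 2-fold of C2C12-PR. Myom1 had a log2 ratio of −0.11 ± 0.63, within its error of no difference, and Myom2 had 0.96 ± 0.37 (1.95-fold), just under the mark of 2-fold, with 1262 of 13473 gene names higher.

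Of the Z-disc genes, the sarcomeric alpha-actinins differed between the conditions. Actn3, the alpha-actinin of fast glycolytic fibres, had a signal of 574 ± 78.9 in C2C12-DF, 23.5 ± 3.99 in C2C12-W4-08 and 204 ± 37.3 in C2C12-PR. It was higher in C2C12-DF, with a log2 ratio of 1.49 ± 0.33 (2.81-fold), and lower in C2C12-W4-08, at −3.12 ± 0.36, where the C2C12-PR signal was 8.67-fold that of C2C12-W4-08. Only 55 of 13473 gene names had a lower ratio in C2C12-W4-08, and the 15 spots printed beside this one had ratios of −0.88 to 0.68. Actn2, the alpha-actinin of all striated fibres, read 9.20 ± 1.6 in C2C12-DF, read 1.99 ± 0.482 in C2C12-W4-08, and was not detected in C2C12-PR. The C2C12-DF signal was thus at least 3.38-fold that of C2C12-PR, and C2C12-W4-08 gave no ratio.

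Myoz2, the myozenin that binds calcineurin and alpha-actinin, had a clear signal in C2C12-DF alone. It read 126 ± 17.4 in C2C12-DF, read 2.42 ± 0.536 in C2C12-W4-08, and was not detected in C2C12-PR, so that the C2C12-DF signal was at least 46.3-fold that of C2C12-PR. This was the largest bound of the group. Ldb3, whose PDZ and LIM domain protein binds alpha-actinin, had a signal of 46.7 ± 6.49 in C2C12-DF, 17.5 ± 2.98 in C2C12-W4-08 and 15.1 ± 3.02 in C2C12-PR. In C2C12-DF its log2 ratio was 1.63 ± 0.35 (3.09-fold). In C2C12-W4-08 it was 0.21 ± 0.38, smaller than its error. Tcap was not detected in C2C12-DF or in C2C12-PR and had 1.13 ± 0.395 in C2C12-W4-08, below the highest mean of the negative controls there, so no level or ratio is given for it.

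Neb, which encodes the nebulin of skeletal thin filaments, read 23.8 ± 3.42 in C2C12-DF, read 1.99 ± 0.482 in C2C12-W4-08, and was not detected in C2C12-PR. The C2C12-DF signal was at least 8.74-fold that of C2C12-PR, and no ratio could be formed for C2C12-W4-08. Neb therefore resembled Myoz2 and Actn2 in having a detectable signal in C2C12-DF against none in C2C12-PR.

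No gene of the group passed 2-fold upward in C2C12-W4-08 under this processing. After scaling to the 75th percentile 1 did (Myom2), and 2 did in the deposited table without rescaling (Myom2 and a bound of Neb). With the local background subtracted 3 did, all as bounds of genes that otherwise had no ratio. Those genes were dim in C2C12-W4-08, at the level of the negative controls. Ldb3, Myom1 and Myom2 then stood at 0.70, 0.53 and 0.32. Of 5 genes with a ratio, 0 were at least 2-fold higher, 2 (Ttn and Actn3) were 2-fold lower and 3 (Ldb3, Myom1 and Myom2) lay within 2-fold, and 4 genes had no ratio. Ttn was counted by M200014444, whose C2C12-W4-08 signal was at the detection limit, while Ttn M300013771 lay within 2-fold. Over all gene names with a ratio or a bound, 9.24% of 14661 were 2-fold higher and 11.1% were 2-fold lower, and among the 13473 detected on both arrays 8.49% and 11.1% were. These shares belong to the main processing, and those under the alternatives are not given here. The 75th percentile and the deposited table without rescaling moved the median of all probes in C2C12-W4-08 by 0.56 and 0.57. The median of the 5 was −0.11, and it was above 0 in 7 of 14 alternatives of the processing. Identical control spots on the 2 arrays gave log2 ratios with an SD of 0.35, against 0.12 for C2C12-DF and C2C12-PR, so small ratios in C2C12-W4-08 are less precise. The ratios of both conditions share the C2C12-PR array. Set directly against C2C12-W4-08, the C2C12-DF signal was 2.67-fold for Ldb3, 7.15-fold for Ttn M300013771, 7.87-fold for Myom2, 11.99-fold for Myom1 and 24.4-fold for Actn3. For Neb, Actn2, Myoz2 and the other Ttn probes no such fold is given, since their C2C12-W4-08 signals were at the level of the negative controls.

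**Figure D2:**
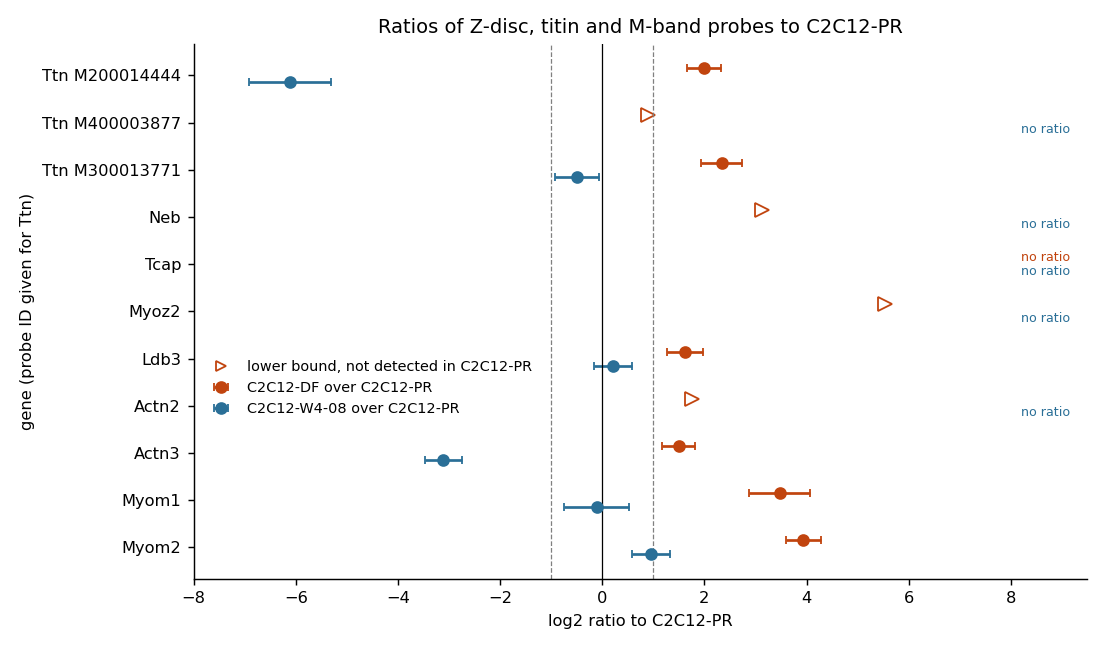
Log2 ratio to C2C12-PR of each probe in C2C12-DF and in C2C12-W4-08, with the technical error as bars, dashed lines at 2-fold and open triangles for lower bounds where the probe was not detected in C2C12-PR. In C2C12-DF all ratios are positive, from 1.49 to 3.94 among the genes detected on both arrays, whereas in C2C12-W4-08 only Ttn M200014444 at −6.11 and Actn3 at −3.12 lie beyond 2-fold.

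More probes were detected in C2C12-W4-08, the array with the dimmest blank spots. The 4 negative controls have 24 spots each, and 57 of these 96 spots lay above the detection limit in C2C12-W4-08, against 7 in C2C12-DF and 7 in C2C12-PR. By the blank rule 10 of the 11 probes were detected in C2C12-DF, 11 in C2C12-W4-08 and 6 in C2C12-PR. The shares of all probes were 74.4%, 92.8% and 71.8% in the same order. With the limit at the mean of the brightest negative control plus 2 SD, a rule added after the data had been seen, 10 probes stayed detected in C2C12-DF, 6 in C2C12-W4-08 and 5 in C2C12-PR. The probes that were then not detected in C2C12-W4-08 were those of Neb, Tcap and Actn2 and the Ttn probes M200014444 and M400003877, so their signals there are at the level of the negative control spots. Myoz2 read 10 scanner units in C2C12-W4-08, equal to the brightest negative control spot. Ldb3, Actn3, Myom1, Myom2 and Ttn M300013771 were above this level on that array. Fewer probes passed the negative control limit across the whole array too. Of all probes, those detected on both C2C12-W4-08 and C2C12-PR went from 16682 to 14417. Those detected on both C2C12-DF and C2C12-PR went from 15918 to 14338. The share of all probes passing this limit on each single array is not given here.

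**Figure D3:**
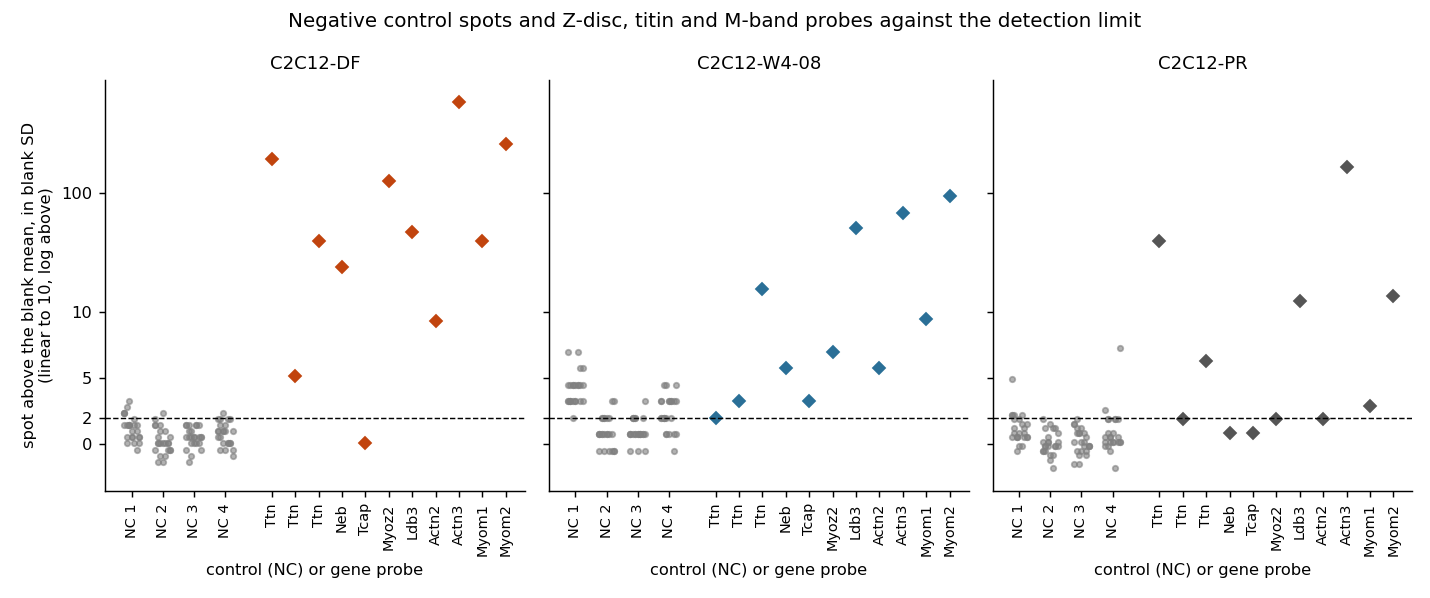
Height above the blank mean, in units of the blank SD (linear to 10, log above), of the negative control spots (grey points, NC 1 to NC 4) and of the 11 probes (diamonds) on each array, with the detection limit of 2 SD dashed. In C2C12-W4-08, 57 of 96 control spots pass the limit and several of the 11 probes stand among them, against 7 control spots in C2C12-DF and 7 in C2C12-PR.

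Genes of the same structures were counted from lists of known partners. Over all gene names with a ratio or a bound, 5.32% were 2-fold higher and 5.0% lower in C2C12-DF. In C2C12-W4-08 these shares were 9.24% and 11.1%, and counts of a few genes there are to be read beside them. Of 19 genes of Z-disc partner proteins, 3 exceeded C2C12-PR at least 2-fold in C2C12-DF and 1 was lower, with a median log2 ratio of 0.35 over those detected on both arrays. The higher ones were Csrp3, the muscle LIM protein, with a bound of 4.25, the small heat shock protein gene Cryab at 1.05 and Pdlim3, whose product binds alpha-actinin, at 1.03, and Xirp2 had a bound of −1.54. The Z-disc genes described above therefore had larger ratios than most of their partners in this list. In C2C12-W4-08, 0 were higher and 3 were lower (median −0.24), and Pdlim3 was the lowest at −3.19, with signals of 923 in C2C12-DF, 49.4 in C2C12-W4-08 and 451 in C2C12-PR. Synpo2l was at −1.62, and Xirp2 was at −2.14 with a C2C12-W4-08 signal of 1.56, which is near that of the negative controls. Pdlim3 shared with Actn3 a higher signal in C2C12-DF and a lower one in C2C12-W4-08.

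Of 16 genes whose products bind titin or the M-band, 8 exceeded C2C12-PR at least 2-fold in C2C12-DF and 0 were lower, with a median of 1.0. Ankrd2, which binds the spring region of titin, had the largest log2 ratio at 6.46, followed by the bound of the creatine kinase gene Ckm at 5.93, Smpx at 5.73 and the bound of the myosin chaperone gene Unc45b at 5.15. The smallest were Sqstm1 at −0.29, Ankrd1 at −0.24 and Trim55 at 0.24, all within 2-fold. In C2C12-W4-08, 2 were higher, Trim54 at 1.66 and Ckm with a bound of 1.11, and 3 were lower, Fhl1 at −1.20, the methyltransferase gene Smyd1 at −1.12 and the titin-binding protease gene Capn3 at −1.08, with a median of −0.29. The Ckm bound set a C2C12-W4-08 signal of 5.87 against the lowest detected C2C12-PR signal of 2.72. The negative control limit in C2C12-PR was higher, at 4.22, and the Ckm signal was less than 2-fold this limit. Trim54, which encodes a muscle ring finger protein, was higher on both arrays, with a signal of 35.2 in C2C12-DF, 32.2 in C2C12-W4-08 and 10.1 in C2C12-PR.

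Of 7 genes of nebulin relatives and thin filament ends, 2 were higher in C2C12-DF, the pointed end cap Tmod1 at 2.14 and the nucleator Lmod2 at 1.94, and 1 was lower, the nebulin family gene Lasp1 at −1.0 (median −0.32). In C2C12-W4-08, Tmod4 was higher with a bound of 1.21, and Tmod1 at −3.15, Lasp1 at −1.47 and Tmod3 at −1.16 were lower (median −1.16). The Tmod4 signal of 6.30 in C2C12-W4-08 was less than 2-fold the negative control limit of 4.22 in C2C12-PR. Tmod1 thus had opposite directions on the 2 arrays, as Ttn M200014444 and Actn3 did. Its C2C12-W4-08 signal of 1.56 was near that of the negative controls.

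Genes of the thick and thin filaments had a larger median ratio in C2C12-DF than the Z-disc and M-band genes, with exceptions such as Myh8 at −0.09 and Tpm1 at 0.24. Of 20, 15 were at least 2-fold higher and 0 were lower, with a median of 5.49, and in C2C12-W4-08 0 were higher and 2 were lower (median −0.30). Of the non-muscle alpha-actinin genes, Actn1 was lower in C2C12-DF, unlike Actn2 and Actn3. Actn1 had a signal of 66.3 in C2C12-DF, 53.3 in C2C12-W4-08 and 155 in C2C12-PR, log2 ratios of −1.23 and −1.54, and Actn4 had ratios of −0.54 (C2C12-DF) and −0.63 (C2C12-W4-08). Among 12 genes of non-muscle actinin and adhesion proteins, 1 was higher (Lima1, 1.58) and 1 lower in C2C12-DF (median −0.047), and 0 were higher and 4 lower in C2C12-W4-08 (median −0.73), which besides Actn1 were Flna at −1.43, Csrp1 at −1.26 and Vcl at −1.20.

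**Figure D4:**
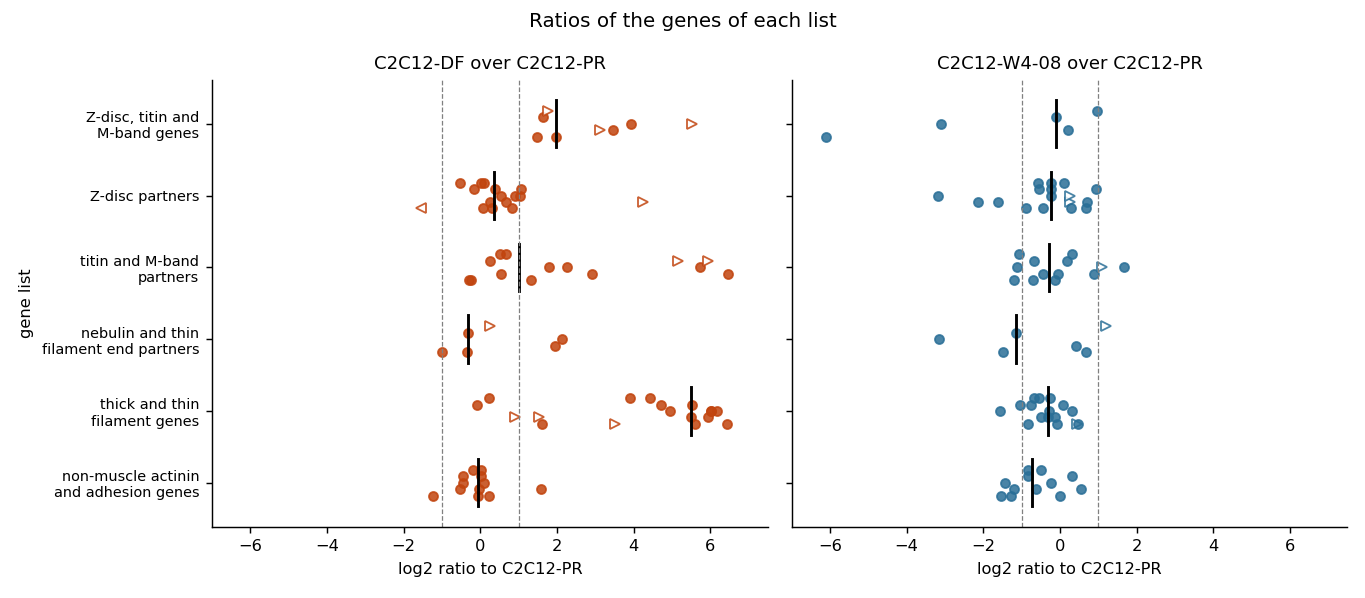
Log2 ratios to C2C12-PR of the genes of each list in C2C12-DF and in C2C12-W4-08, 1 point per gene, with open triangles for bounds, thick bars for the median of the genes detected on both arrays and dashed lines at 2-fold. In C2C12-DF the medians are 1.99 for the Z-disc, titin and M-band genes, 0.35 for Z-disc partners and 5.49 for the thick and thin filament genes, and in C2C12-W4-08 the medians of the 6 lists plotted run from −1.16 to −0.11.

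Markers of other cell types gave the following values, to be read beside the same shares of all gene names. Summed signals cover the markers detected on each array. Of 4 osteoblast markers none in C2C12-DF and 1 in C2C12-W4-08, Alpl, exceeded C2C12-PR at least 2-fold, with summed signals of 13.9 in C2C12-DF, 23.6 in C2C12-W4-08 and 13.5 in C2C12-PR. Alpl stood in C2C12-PR at the lowest detected signal, 2.72. Of 5 adipocyte markers none in C2C12-DF and 1 in C2C12-W4-08, Fabp4 with a bound, exceeded C2C12-PR at least 2-fold. Their sums were 25.3 in C2C12-DF, 122 in C2C12-W4-08 and 56.8 in C2C12-PR, and Adipoq was not detected on any of the 3 arrays. Of 6 cardiac markers 1 was higher in C2C12-DF, Tnnt2, which developing skeletal muscle also expresses, and 1 was lower in C2C12-W4-08. Myoblast markers summed to 3657 in C2C12-DF, 1243 in C2C12-W4-08 and 2378 in C2C12-PR, and 3 of 6, Myod1, Cdh15 and Pax7, were at least 2-fold lower in C2C12-W4-08, where Pax7 was at the lowest detected signal. Myf5 went the other way, with 117 in C2C12-W4-08 and 60.9 in C2C12-PR, a log2 ratio of 0.94. Of 6 myotube markers in C2C12-W4-08, 1 (Ckm, a bound) was at least 2-fold higher, 1 (Mymk) was 2-fold lower, 3 lay within 2-fold and 1 had no ratio. Against the negative control limit of C2C12-PR, Ckm stayed under 2-fold, as given above. The part of these differences in the Ttn and Actn3 values was not tested.

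The pair of log2 ratios of each probe detected on all 3 arrays was set against 4007 named probes with a signal of at least 100 on 1 array, by Euclidean distance over 2 ratios from 3 arrays. The nearest to Actn3 were 6330406I15Rik at 0.11, the imprinted noncoding RNA gene H19 at 0.20 and Pdlim3 at 0.47. H19 had a signal of 9710 in C2C12-DF, 435 in C2C12-W4-08 and 3306 in C2C12-PR. Ttn M300013771 was nearest to Casp4 at 0.14, Mustn1 at 0.22 and Ncam1 at 0.24, whereas Ttn M200014444, whose C2C12-W4-08 ratio rests on a signal at the detection limit, had no gene closer than 1110003E01Rik at 1.51, followed by Emp3 at 1.87 and Paip1 at 2.07. Ldb3 was nearest to Cyp1b1 at 0.064, Itm2b at 0.068 and Scrib at 0.13. Myom1 was nearest to Chrng, the acetylcholine receptor subunit of immature muscle, at 0.50, and to Slc2a6 and Ptpla at 0.57, and Myom2 to Cox8b at 0.72, Hrc at 0.76 and Adamts5 at 0.87. With 2 ratios per gene, such distances describe these arrays only.

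Every probe with a value in C2C12-DF kept its direction under the alternatives of the processing that gave one, and the size varied. For the bounds of Neb, Myoz2, Actn2 and Ttn M400003877 this was largely fixed in advance. A bound pointing the other way counted as no value. Over the alternatives the log2 ratio of Myom2 in C2C12-DF ran from 1.79 to 3.98, that of Myom1 from 1.24 to 3.89, that of Actn3 from 0.82 to 1.70 and that of Ldb3 from 0.82 to 1.76. In C2C12-W4-08 the Actn3 ratio stayed between −3.17 and −2.12, while Ttn M200014444 ran from −7.36 (a bound) to −1.11. The bounds varied most, Myoz2 from 0.76 to 7.35, Neb from 0.91 to 5.56 and Actn2 from 0.67 to 4.89 in C2C12-DF. With the limit set by the negative controls the bounds of Myoz2, Neb and Actn2 were 4.86, 2.46 and 1.08, against 5.53, 3.13 and 1.76 with the blank spots, and Myom1 became a bound of 3.18. The value of −1.11 of Ttn came from normexp, which adds an offset of 50 to every spot and so compresses the ratios of dim ones. Myom2 in C2C12-W4-08 ran from 0.091 to 1.52 and passed 2-fold in 2 alternatives, scaling to the 75th percentile and the deposited table without rescaling, which move the median of all probes in C2C12-W4-08 by 0.56 and 0.57. In the authors' deposited table the Ttn M200014444 signal was 305 in C2C12-DF, empty in C2C12-W4-08 and 70.4 in C2C12-PR, and Myoz2 had 202, 4.97 and 4.50 in the same order.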

How the data were processed

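RNA of C2C12 cultures was hybridised to 3 one-colour arrays (Cy5, 635 nm), 1 for each of C2C12-DF, C2C12-W4-08 and C2C12-PR, with groups taken from the sample labels and nothing pooled. The scanner intensity files were deposited by the authors as read, without background subtraction or scaling. The authors also deposited a table of signals of the same arrays, background-subtracted and scaled to a median of 25.0 for C2C12-DF, 25.0 for C2C12-W4-08 and 25.0 for C2C12-PR, on a linear scale without centring, and it was used as an alternative. The array labels name the miRNeasy kit for RNA extraction and the methods name Isogen.

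Spot medians minus the blank mean were scaled as described above. The 1 probe printed more than once was averaged, and control spots were left out. Where a probe was detected on 1 array of a pair, the ratio was a bound against the lowest detected signal of the other array (2.35 in C2C12-DF, 0.697 in C2C12-W4-08 and 2.72 in C2C12-PR). A bound that pointed the other way was taken as no ratio. A gene with several probes was counted by its probe of highest mean signal. Of 18356 gene names on the array, 12834 matched a current symbol, and synonyms were searched for the lists.

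The genes and the 11 lists were chosen with earlier results of these data known. The text names every gene of the group, up to 4 partner genes with the largest and 3 with the smallest ratio in C2C12-DF, up to 3 with the smallest and 2 with the largest in C2C12-W4-08, and the 3 nearest genes. Genes named for their level elsewhere were chosen after their values were seen.

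There were 16 alternatives: quantile, 75th percentile and loess scaling, centring in 48 print blocks, normexp with an offset of 50, the local background, the spot mean, detection at 3 SD or with no rule, a minimum signal of 20, the deposited table with and without rescaling, the mean over probes, 1.5-fold and 4-fold marks, and the negative control limit, which was added after the data had been seen. Values came from Python 3.11.15 with numpy 2.4.6, pandas 2.3.3 and statsmodels 0.14.6, and from limma 3.58.1 in R 4.3.3 for normexp. The steps were tested on simulated data. Changes were simulated only at probes well above the blank spots in C2C12-PR, so the test did not cover probes that are dim there, as most of the 11 are.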

Additional observations from a re-analysis of the deposited data

How the results depend on the processing

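With 1 array per condition nothing here has a replicate error, and dim probes are limited by the blank spots. No paired analysis was possible because each condition had 1 array. No gene of the group was 2-fold lower in C2C12-DF under any of the 16 alternatives, and no ratio of a probe changed from beyond 2-fold to the other direction. The 8 genes at least 2-fold higher in C2C12-DF became 4 with normexp, 3 with the spot mean and 4 at a mark of 4-fold, and were 7 or 8 otherwise. The shares of all gene names past the mark under the alternatives are not given here. The spot mean detects few probes, since the blank spots then vary more, with an SD of 86.3 against 2.95 scanner units in C2C12-PR. The median log2 ratio in C2C12-DF of 1.99 became 2.15 with print block centring, 1.24 with normexp, 1.56 with the spot mean, 1.81 with detection at 3 SD, 2.11 in the deposited table without rescaling, 2.16 as the mean over probes and 1.82 with the negative control limit. The 0 genes at least 2-fold higher in C2C12-W4-08 became 1 with the 75th percentile, 3 with the local background, 2 in the deposited table without rescaling and 1 at a mark of 1.5-fold. The 3 with the local background were bounds of dim probes. The 2 lower ones became 1 with the spot mean. They became 3 with no detection rule, where undetected signals count at the lowest detected one. The median in C2C12-W4-08 of −0.11 became 0.45 with the 75th percentile, 0.32 with the local background, −2.99 with the spot mean, where 1 gene remained, and −3.12 at a minimum signal of 20, where 3 did. For the other changes the cause was not tested. Of 201 probe values under the alternatives, 129 moved by less than the SD of the log2 ratios of identical control spots (0.12 in C2C12-DF and 0.35 in C2C12-W4-08), 72 moved by more, and 0 reversed. Part of the 129 could not move. Dropping the detection rule or asking for a minimum signal of 20 leaves a printed value as it was. The mean over probes does the same for a gene with 1 probe. A bound pointing the other way gave no value, so the bounds could hardly reverse.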
